A study of Homo sapiens with 16 samples.

Results

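The AP-1 transcription factor genes described here are 9 of the 19970 protein-coding genes of GENCODE release 44 on the autosomes and the X chromosome: the JUN family (JUN, JUNB and JUND), the FOS family (FOS, FOSB, FOSL1 and FOSL2), and the partner genes ATF3 and BATF3. They were chosen by name. For each gene, the H3K27ac peaks lying within 2 kb of the gene start, and those lying in a window made of the gene body plus 50 kb on either side, were recorded in all 16 peak lists of the study. On hg38, JUN lies at chr1:58776845-58784048 (minus strand), JUNB at chr19:12791486-12793315 (plus), JUND at chr19:18279694-18281622 (minus), FOS at chr14:75278826-75282230 (plus), FOSB at chr19:45467995-45475179 (plus) and FOSL1 at chr11:65892049-65900573 (minus). FOSL2 lies at chr2:28392448-28417317 (plus), ATF3 at chr1:212565334-212620777 (plus) and BATF3 at chr1:212686417-212699840 (minus).

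Acetylation of histone H3 at lysine 27 (H3K27ac), a mark of active promoters and enhancers, was mapped by ChIP-seq in MDA-MB-231 and Hs578T cells, which are established triple-negative breast cancer cell lines. Each line was examined as control cells and as cells in which Fn14, the receptor for the cytokine TWEAK, had been knocked out with CRISPR (Fn14 KO), either untreated or given 10 ng/ml TWEAK for 48 h with a fresh dose at 24 h, all after 8 h of starvation in Opti-MEM. Each of the 8 groups had 2 numbered replicates, and 1 list of broad peaks was called for each replicate, so n = 2 for every group below. The study's supplement lists the Fn14 primers among those for genotyping CRISPR clones, while how many clones each Fn14 KO culture held is not given in the sources used here. The p-values measure the spread between the lists, which may be partly technical.

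The lists held between 39544 and 47197 peaks that covered 64.2 to 88.9 Mb. The lists of MDA-MB-231 Fn14 KO cells stood apart, with a median −log10 q-value of 5.79 to 7.69 against 7.86 to 10.8 in the other lists and a median fold enrichment of 4.998 to 5.21 against 5.53 to 5.89 in the MDA-MB-231 control lists. The start of TNFRSF12A, the gene for Fn14, kept a peak in all lists, with a fold enrichment of 35.1 to 38.2 (control) and 16.2 to 20.9 (Fn14 KO) in MDA-MB-231, and of 32.6 to 35.2 and 19.8 to 22.3 in Hs578T. A histone mark does not report whether the receptor is lost. All 5 mesenchymal or basal markers (VIM, AXL, CD44, ZEB1 and CAV1) carried a peak at the start in all 16 lists, whereas the luminal genes ESR1, PGR and CDH1, the 3 leukocyte markers and both endothelial markers carried none. The luminal genes GATA3, KRT19 and EPCAM carried one in all 16 lists, and FOXA1 in 2.

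AP-1 is a dimer of basic leucine zipper proteins that binds the DNA element TGANTCA. JUN proteins pair with each other or with FOS proteins, while FOS proteins need a JUN partner, and ATF and BATF proteins join JUN proteins in dimers with other site preferences. FOS, FOSB, JUN, JUNB and ATF3 are immediate early genes that respond to mitogens, stress and cytokines, and JUN and ATF proteins lie downstream of the JNK kinases. FOSL1 (FRA-1) is known for its high activity in basal-like and mesenchymal breast cancer cells.

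The promoters of the 4 genes below are shown because FOS and FOSB lost acetylation at their start under TWEAK, JUND carried the only full cyclic AMP response element among the members with a RefSeq entry, and JUN, whose start did not pass the test, serves as a contrast. They were chosen after the values were seen. Each is the 250 bases before the RefSeq start (GRCh38.p14), read 5′ to 3′ on the gene's strand. Capitals mark every match, on either strand, to TGANTCA, TGACGTCA, GGANNTTCC (an NF-κB type motif), TGACNTCA, TGACG or TATAAA, of which TGACG lies inside TGACGTCA and TGACNTCA includes it. FOS lies at chr14:75278578-75278827 on the plus strand, FOSB at chr19:45467746-45467995 on the plus strand, JUND at chr19:18281623-18281872 on the minus strand and JUN at chr1:58784048-58784297 on the minus strand.
FOS: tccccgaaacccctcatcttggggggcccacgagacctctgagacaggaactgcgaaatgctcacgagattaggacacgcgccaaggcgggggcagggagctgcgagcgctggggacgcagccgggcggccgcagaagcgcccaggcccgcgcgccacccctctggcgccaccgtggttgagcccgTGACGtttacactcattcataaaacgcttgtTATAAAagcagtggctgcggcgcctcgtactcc
FOSB: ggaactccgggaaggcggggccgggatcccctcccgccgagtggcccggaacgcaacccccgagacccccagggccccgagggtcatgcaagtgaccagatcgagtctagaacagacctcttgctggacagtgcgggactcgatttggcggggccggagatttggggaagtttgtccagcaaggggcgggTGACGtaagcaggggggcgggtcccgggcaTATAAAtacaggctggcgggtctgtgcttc
JUND: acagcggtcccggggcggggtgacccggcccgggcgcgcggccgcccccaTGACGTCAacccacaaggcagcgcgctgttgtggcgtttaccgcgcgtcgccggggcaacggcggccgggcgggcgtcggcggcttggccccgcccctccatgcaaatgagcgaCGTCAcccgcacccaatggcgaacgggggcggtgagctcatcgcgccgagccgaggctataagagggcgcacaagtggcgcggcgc
JUN: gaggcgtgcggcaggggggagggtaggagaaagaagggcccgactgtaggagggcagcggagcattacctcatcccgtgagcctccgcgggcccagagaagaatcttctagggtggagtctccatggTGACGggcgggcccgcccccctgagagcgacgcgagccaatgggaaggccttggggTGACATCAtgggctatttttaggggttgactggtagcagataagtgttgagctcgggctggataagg

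FOS and FOSB had a similar layout, with TGACG at −64 and −60 and TATAAA at −33 and −30 from the start. JUND had TGACGTCA at −200 and a further TGACG, read on the other strand, at −86. JUN had TGACATCA, a match to TGACNTCA, at −67 and TGACG at −123. No window of the 7 members with a RefSeq entry held TGANTCA or GGANNTTCC before the start. Among 34961 RefSeq windows of the same length, 6.54% held TGANTCA, 1.65% TGACGTCA, 3.86% GGANNTTCC, 6.88% TGACNTCA, 21.2% TGACG and 10.7% TATAAA. A match is a description of the letters and not a binding site. FOSL1 and BATF3 are named only.

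All 9 members were marked in every list, with 1 peak within 2 kb of the gene start in each of the 16. The fold enrichment of a peak is the ChIP signal over the background that the peak caller set, and the value given here for a start is the highest among its peaks. Over the 16 lists, the median fold enrichment was 24.9 at FOSL1, 24.7 at JUND, 22.5 at FOSL2, 20.2 at JUNB, 18.7 at FOSB, 18.5 at FOS, 14.1 at ATF3, 13.5 at JUN and 3.57 at BATF3. The median over the 10570 genes with a start peak in all lists was 9.19, so 8 members lay above it and BATF3 lay at percentile 0.7. The ranges of neighbours in this order overlapped from FOSL1 (16.8 to 37.2) down to JUN (11.1 to 19.0), while the highest value of BATF3 (5.57) was below the lowest of every other member. A start peak is scored once however wide it is. That of FOSL1 was 32171 to 33632 bp wide and lay in a region that also held the starts of FIBP, CCDC85B, C11orf68 and DRAP1, so its value is shared with them, and that of JUND lay in a region shared with IQCN.

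**Figure D1:**
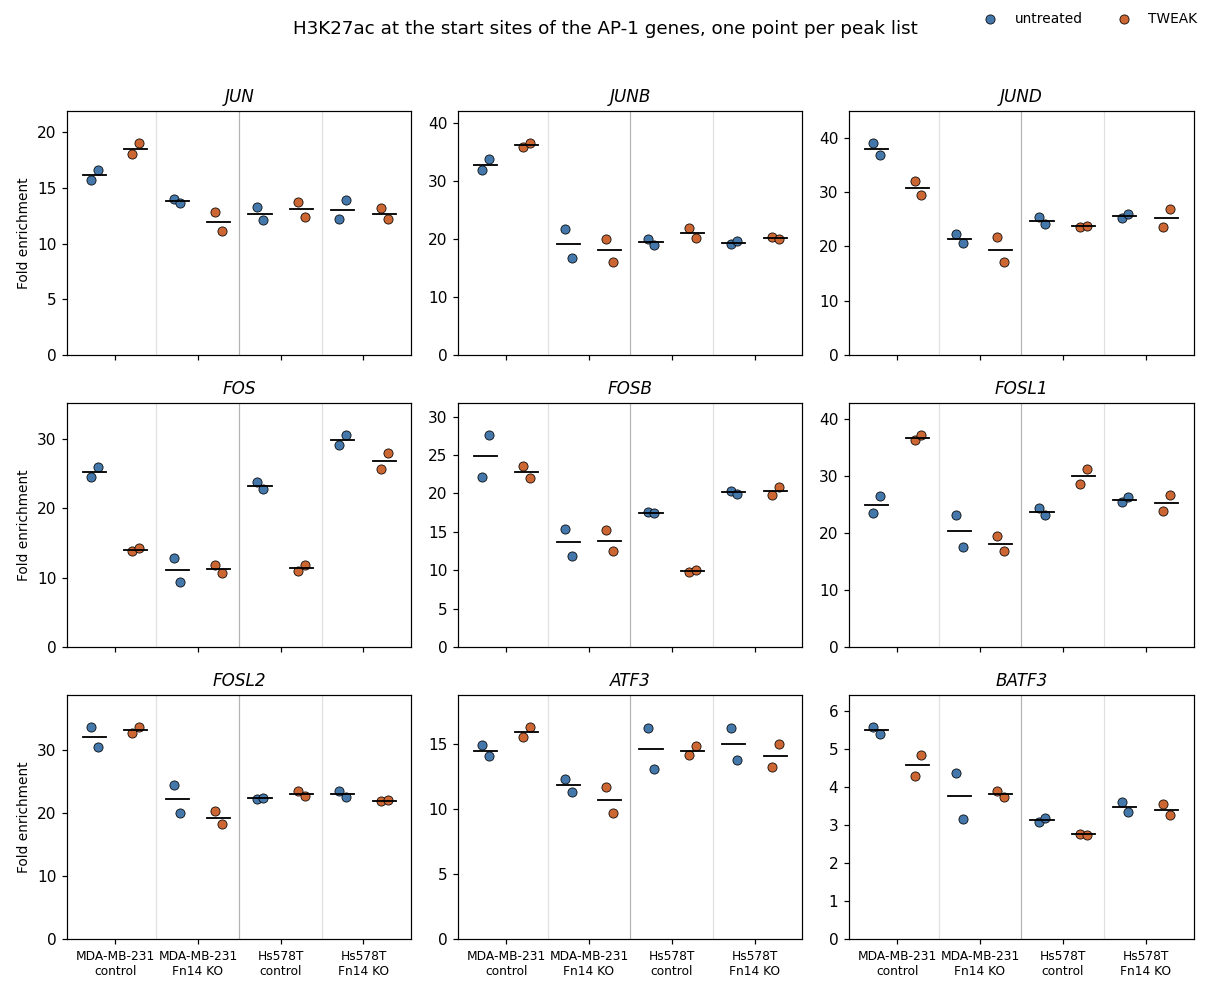
Fold enrichment of H3K27ac within 2 kb of the start of each AP-1 gene (y axis, linear, from 0, a separate scale for each gene). Each point is 1 peak list, blue for untreated and orange for TWEAK, and the black line is the mean of the 2 lists. In control cells FOS falls in both lines, FOSB falls in Hs578T from 17.5 and 17.4 to 9.81 and 10.0, and FOSL1 is higher with TWEAK in both lines.

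In bulk cultures a change in every cell and a change in the share of cells that carry the mark cannot be told apart. The first question was whether TWEAK altered acetylation at the AP-1 gene starts of control cells, and whether Fn14 was needed. FOS, the founding member of its family, fell in both lines, FOSB fell on the mean of both lines, and FOSL1 rose on that mean. With limma over the 10570 genes, 1 member was higher and 2 were lower on the mean of both lines, beside 13.8% of all genes higher and 7.26% lower (percentages of those tested). The median log2 difference was 0.05 for the 9 members and 0.05 for all genes. In Fn14 KO cells no member passed, nor did any of the 10570 genes (0.0%), with 258 genes and 0 members at an unadjusted p under 0.05. When each list was centred on its median, the higher share of all calls went from 65.6% to 48.7%, and JUND and BATF3 passed as lower beside FOS and FOSB. Centred, 1377 of the 10570 genes were higher and 1450 lower.

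The fold enrichment at the FOS start was 24.5 and 25.9 in untreated and 13.9 and 14.2 in TWEAK-treated control cells of MDA-MB-231. The Hs578T controls held 23.7 and 22.7 untreated and 10.98 and 11.8 with TWEAK. The treated and untreated lists did not overlap in either line, and the treated Hs578T lists lay below the treated MDA-MB-231 lists. The log2 difference was −0.85 ± 0.13 (SE) in MDA-MB-231 and −1.03 ± 0.13 in Hs578T, a fold of 0.556 and 0.490, with adjusted p = 3e-05 and 3.5e-06. Within MDA-MB-231, 1 member was higher (FOSL1) and 1 lower (FOS), beside 7.18% and 3.75% of genes, and within Hs578T none was higher and 2 were lower (FOS and FOSB), beside 4.57% and 2.3%. Centring took the higher share of calls from 65.7% to 48.9% in MDA-MB-231, and in Hs578T from 66.5% to 53.2%.

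The FOS start of Fn14 KO cells differed between the lines before any treatment. It was 12.8 and 9.43 untreated and 11.9 and 10.7 with TWEAK in MDA-MB-231, and 29.1 and 30.5 untreated and 25.7 and 27.98 with TWEAK in Hs578T. The untreated MDA-MB-231 Fn14 KO lists were thus already below the TWEAK-treated control lists of that line, whereas those of Hs578T were above all control lists. The TWEAK difference in Fn14 KO cells was 0.04 ± 0.13 in MDA-MB-231 and −0.15 ± 0.13 in Hs578T. The difference between genotypes in the TWEAK response (control minus Fn14 KO) was −0.88 ± 0.18 in MDA-MB-231 and −0.88 ± 0.18 in Hs578T, with adjusted p = 0.003 and 0.0098, beside 0.776% and 0.303% of genes lower and 3.67% and 0.719% higher. On the mean of both lines it was −0.88 ± 0.13 with adjusted p = 2.7e-05.

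FOSB, a FOS relative with the same immediate early behaviour, passed within Hs578T and not within MDA-MB-231. Its start held 17.5 and 17.4 untreated and 9.81 and 10.0 with TWEAK in Hs578T control cells, a log2 difference of −0.82 ± 0.13 (adjusted p = 0.00019). In MDA-MB-231 control cells it held 22.2 and 27.6 untreated and 23.6 and 22.0 with TWEAK, where the groups overlapped and the difference was −0.12 ± 0.13 (adjusted p = 0.65). The responses of the lines differed by −0.70 ± 0.19 (Hs578T minus MDA-MB-231), which did not pass over all genes (adjusted p = 0.50), so a difference between lines was not shown. No member passed that test (1 at an unadjusted p under 0.05, 394 of all genes), beside 0.00946% of genes higher and 0.0284% lower. Without Fn14, FOSB held 15.4 and 11.8 untreated and 15.2 and 12.5 with TWEAK in MDA-MB-231, and 20.4 and 20.0 against 19.8 and 20.8 in Hs578T. The control response differed from the Fn14 KO response by −0.49 ± 0.13 on the mean of both lines (adjusted p = 0.018).

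FOSL1 went the other way. Its start peak rose in MDA-MB-231 control cells from 23.5 and 26.5 to 36.3 and 37.2, a log2 difference of 0.56 ± 0.13 and a fold of 1.47 (adjusted p = 0.0031). In Hs578T control cells the values were 24.4 and 23.1 untreated and 28.7 and 31.2 with TWEAK, which did not overlap but did not pass on their own (0.33 ± 0.13, adjusted p = 0.11). In Fn14 KO cells all TWEAK-treated and untreated lists lay between 16.8 and 26.6. The mean difference over both lines was 0.45 ± 0.09 in control cells (adjusted p = 0.00043) and −0.09 ± 0.09 in Fn14 KO cells, and the genotypes differed by 0.54 ± 0.13 (adjusted p = 0.0048). Because the peak spans the starts of several genes, the rise cannot be told apart from one at its neighbours.

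Over both lines, 1 higher and 2 lower members differed between genotypes in the TWEAK response, beside 7.64% and 2.61% of all genes, and centring took the higher share of those calls from 74.5% to 52.9% on the mean, from 82.6% to 55.1% within MDA-MB-231 and from 70.4% to 60.4% within Hs578T. Under the exact permutation test over exchanges of the treatment labels within line and genotype, the unadjusted p-values were 0.037 for FOS, 0.0154 for FOSL1 and 0.0957 for FOSB, and none of the 10570 genes passed after adjustment. With 2 lists per group the possible exchanges are few, which limits how small these p-values can get. Failing adjustment over all genes therefore does not decide whether these responses differ. For FOSB the adjusted limma p also rose above 0.05 without MDA-MB-231 control untreated replicate 2 or MDA-MB-231 control TWEAK replicate 2.

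The other 6 starts did not pass in control cells. JUN held 15.7 and 16.6 untreated and 18.05 and 18.99 with TWEAK in MDA-MB-231, and 13.3 and 12.1 against 13.7 and 12.4 in Hs578T. JUNB, a JUN relative with weaker activation of most targets, held 31.9 and 33.8 against 35.9 and 36.5 in MDA-MB-231 and 20.1 and 19.0 against 22.0 and 20.2 in Hs578T. JUND, the JUN protein that is usually present without stimulation, held 39.0 and 36.9 against 32.1 and 29.5 in MDA-MB-231 and 25.3 and 24.2 against 23.6 and 23.8 in Hs578T. FOSL2 (FRA-2) differed by 0.05 ± 0.08 on the log2 scale over both lines, ATF3, a stress-induced factor, by 0.07 ± 0.10, and BATF3, best known as a regulator of dendritic cells, by −0.23 ± 0.12. Treated and untreated control lists did not overlap in both lines for JUNB and FOSL1 (higher) and for JUND, FOS and BATF3 (lower), against 20.4% and 11.3% of all genes. No member did so in Fn14 KO cells, where 0.833% and 2.0% of genes did.

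**Figure D2:**
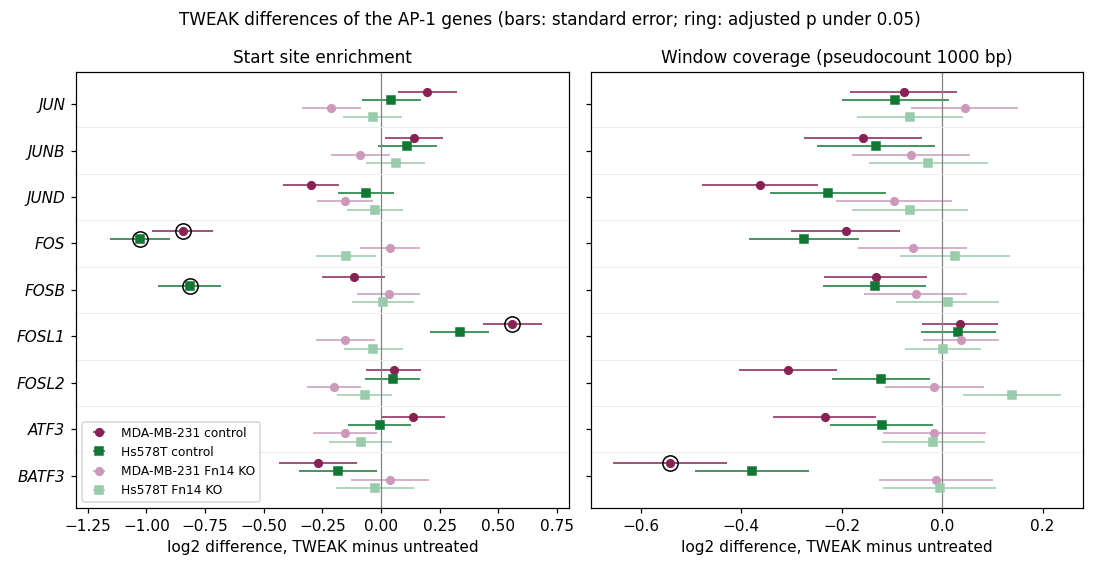
log2 difference between TWEAK-treated and untreated lists (x axis) of each AP-1 gene, for start site enrichment on the left and the covered length of the window on the right, in the 4 combinations of line and genotype. Points are limma estimates with their standard error, and rings mark an adjusted p under 0.05 over all genes, which FOS carries in both control lines, FOSB in Hs578T control, FOSL1 in MDA-MB-231 control and, for coverage, BATF3 in MDA-MB-231 control.

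The wider windows were then compared by the length of DNA that peaks covered. The windows ran from 101.8 kb at JUNB to 155.4 kb at ATF3, and the median covered length over the lists went from 7.08 kb at BATF3 to 39.1 kb at FOSL1, against 6.81 kb for all genes tested. The JUN, FOS and BATF3 windows held no other protein-coding start, while those of FOSL1, JUNB, JUND and FOSB held 9, 6, 5 and 4, which count toward their coverage. The ATF3 and BATF3 windows overlap by 34.4 kb. Differences below are on the log2 scale of covered length plus 1000 bp, from limma over 17915 genes.

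BATF3 lost covered length in control cells. In MDA-MB-231 its window held 9.22 and 8.57 kb untreated and 5.74 and 5.85 kb with TWEAK, a log2 difference of −0.54 ± 0.11 (adjusted p = 0.011). It was the 1 member called lower in that line, where 3.56% of genes were lower and 3.53% higher. In Hs578T control cells the window held 8.29 and 6.59 kb against 5.10 and 5.84 kb, which did not overlap, at −0.38 ± 0.11 (adjusted p = 0.069). No member passed in Hs578T by limma, where 2.17% of genes were higher and 3.27% lower, 3665 genes and 2 members having an unadjusted p under 0.05. With Fn14 knocked out BATF3 held 7.26 and 6.57 kb against 6.90 and 6.78 kb in MDA-MB-231, and 9.38 and 9.19 kb against 8.89 and 9.61 kb in Hs578T. The genotypes differed in their response by −0.45 ± 0.11 (adjusted p = 0.036), beside 2.23% of genes lower and 2.7% higher. That call was lost without any 1 of 11 of the 16 lists, under the replicate block and under the exact test, whose few exchanges limit its p-values. The call in MDA-MB-231 rested on the width of the window: with flanks of 10 kb or 100 kb in place of 50 kb no member passed, and it was lost without control untreated replicate 1, or without either TWEAK replicate.

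On the mean of both lines, 3 members lost covered length with TWEAK in control cells, beside 11.1% of genes lower and 6.84% higher. They were BATF3 (−0.46 ± 0.08, adjusted p = 0.0015), JUND (−0.29 ± 0.08, adjusted p = 0.023) and FOSL2 (−0.21 ± 0.07, adjusted p = 0.047). The median difference of the 9 members was −0.18 and that of all genes −0.05. Both treated lists lay below both untreated lists in both lines for 8 members, all but FOSL1, beside 19.3% of genes, and above them for none, beside 10.9%. With Fn14 knocked out no member was separated in either direction, beside 1.81% of genes lower and 0.737% higher. JUND went from 19.9 and 25.9 kb to 17.9 and 16.9 kb in MDA-MB-231, and from 20.5 and 21.7 kb to 17.6 and 18.1 kb in Hs578T. FOSL2 went from 31.8 and 35.6 kb to 28.4 and 25.7 kb in MDA-MB-231, and from 32.5 and 30.1 kb to 27.8 and 29.6 kb in Hs578T. FOS was at −0.23 ± 0.08 (adjusted p = 0.051), and FOSL1, whose start rose, was at 0.03 ± 0.05. All 3 calls were lost with flanks of 10 or 100 kb. JUND and FOSL2 also lost theirs under the higher q-value minimum, JUND without any 1 of 6 of the 8 control lists and FOSL2 without any 1 of 7, without the trend and under the replicate block. When lists were centred, 4 members were lower and none higher, beside 2846 and 2554 of the 17915 genes. In Fn14 KO cells no member passed in either line, beside 0.0112% of genes lower in MDA-MB-231 and 0.0% in Hs578T, with 530 and 199 genes and 0 members at an unadjusted p under 0.05.

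**Figure D3:**
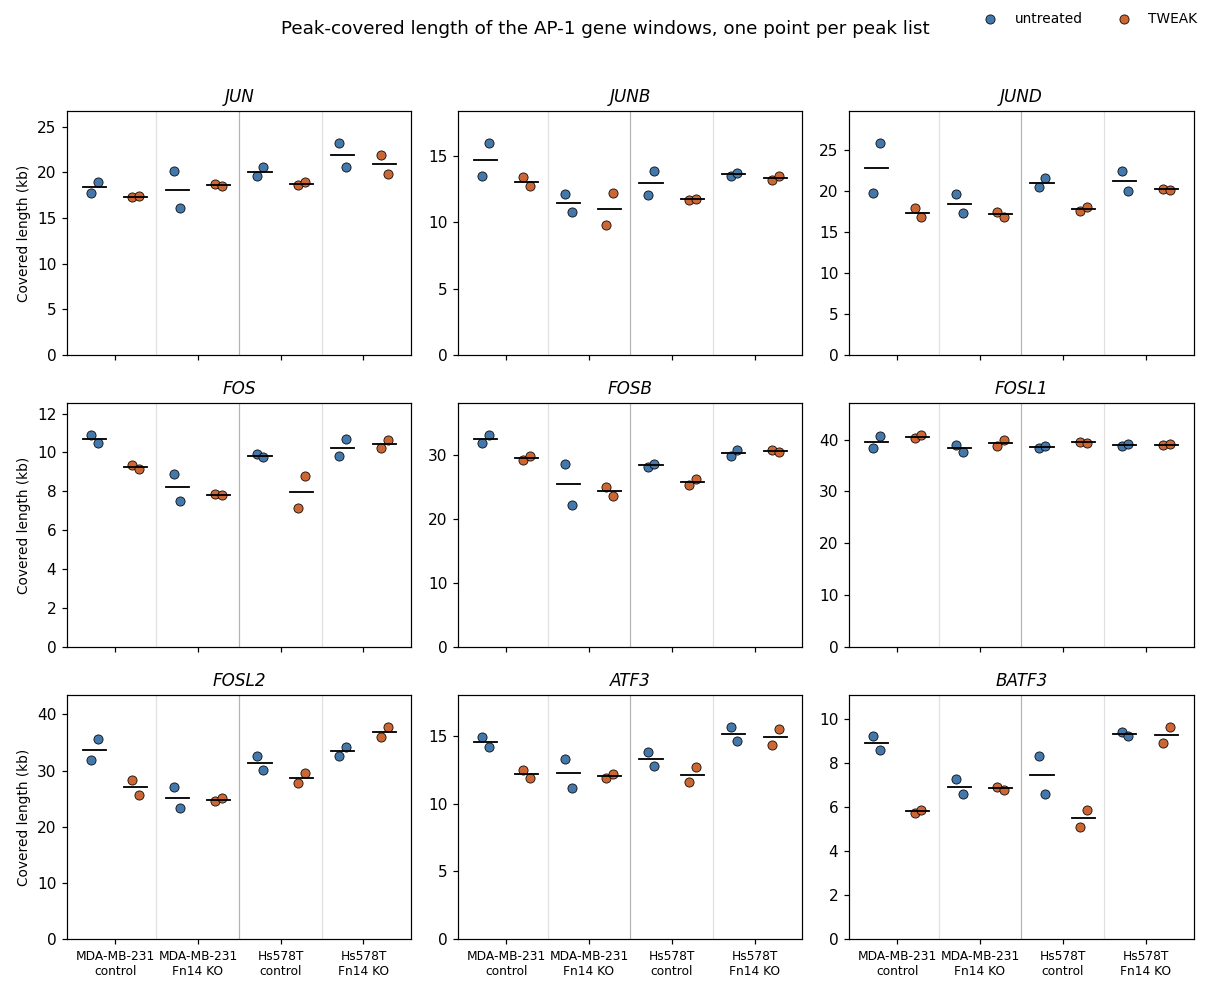
Length of DNA covered by H3K27ac peaks in the window of each AP-1 gene (y axis, kb, linear, from 0), with 1 point per peak list, blue for untreated and orange for TWEAK, and the mean of the 2 lists as a line. In control cells both TWEAK lists lie below both untreated lists in both lines at 8 of the 9 genes, and FOSL1 stays between 37.6 and 40.8 kb throughout.

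Single regions within the windows were compared by fold enrichment, a different measure from covered length, and moved in both directions. Peaks of all lists were merged, which placed 63 distinct regions in the 9 windows, 48 of them with a peak in every list. limma on their log2 fold enrichment, over the 28337 such regions genome-wide, was added after the files were seen. In control cells 10 of the 48 rose and 11 fell, beside 26.0% of all regions higher and 16.1% lower. The 21 that moved were thus a share near that of all regions, 42.1%. With lists centred on their medians these were 8 higher and 19 lower, beside 6472 and 6847 of the 28337 regions. The higher share of all calls went from 61.7% to 48.6%. In Fn14 KO cells none of the 48 and none of the 28337 passed (0.0%), with 3 and 880 at an unadjusted p under 0.05. The response differed between genotypes at 15 of the 48, 7 higher and 8 lower in control cells, beside 20.1% and 8.47% of all regions (28.6% in all). Centring took the higher share of those calls over all regions from 70.4% to 51.1%.

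All 3 FOS regions that every list held fell in both lines. Besides the start, the region 18.3 kb upstream (chr14:75257047-75260491) went from 11.5 and 12.6 to 9.01 and 7.48 in MDA-MB-231 control cells and from 13.1 and 12.4 to 6.56 and 8.19 in Hs578T. The region 14.1 kb downstream of the start (chr14:75292963-75296285) went from 22.7 and 25.2 to 15.5 and 14.8, and from 17.8 and 16.2 to 11.96 and 11.5. Their log2 differences over both lines were −0.67 ± 0.11 and −0.60 ± 0.10, with adjusted p = 2.1e-07 and 4.8e-07. No treated control list reached an untreated one of its line at either region. The window holds no other protein-coding start.

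JUN showed the reverse away from its start. Of its 6 regions in every list, 4 rose, all outside the gene, while the start was at 0.12 ± 0.10. The region 26.99 kb downstream of the start (chr1:58753566-58757061) went from 8.06 and 10.1 to 12.9 and 14.1 in MDA-MB-231 control cells and from 9.93 and 11.3 to 14.3 and 15.8 in Hs578T, a log2 difference of 0.54 ± 0.11 (adjusted p = 2.3e-05). The strong region 28.9 kb upstream went from 21.9 and 20.3 to 27.4 and 29.3, and from 21.3 and 21.9 to 24.9 and 25.3 (0.32 ± 0.09, adjusted p = 0.0026). The other 2 were 18.9 kb downstream (0.41 ± 0.12) and 38.6 kb upstream (0.30 ± 0.12, adjusted p = 0.037). The JUN window holds no other protein-coding start either.

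At JUNB none of 4 regions passed over both lines. At JUND a region 9.84 kb upstream (chr19:18291460-18294521) fell from 23.9 and 25.0 to 15.95 and 15.97 in MDA-MB-231 and from 20.7 and 17.8 to 13.8 and 13.9 in Hs578T, a log2 difference of −0.54 ± 0.10 (adjusted p = 6.6e-06), and the other 3 did not pass. In MDA-MB-231 Fn14 KO cells this region stood at 13.1 and 8.57 before treatment. A further JUND region, 49.6 kb downstream and overlapping PDE4C, lacked a peak in some lists and was left out of that fit. Treated controls held 7.70 and 7.35 (MDA-MB-231) and 6.91 and 8.46 (Hs578T) there. Untreated controls had a peak in replicate 2 only, at 2.85 and 2.94, so it was not counted as gained below. Its highest Fn14 KO value was 3.81.

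The FOSB window moved in both directions. The region 22.8 kb upstream, inside the ERCC1 gene, fell from 32.1 and 28.7 to 22.7 and 24.6 in MDA-MB-231 and from 24.2 and 22.0 to 12.8 and 12.4 in Hs578T (−0.62 ± 0.09, adjusted p = 4.2e-08). Treated and untreated lists did not overlap in either line, unlike at the FOSB start. A region 15.8 kb upstream also fell (−0.30 ± 0.10). The region at the ERCC1 start, 9.19 kb downstream of the FOSB start, rose from 19.5 and 19.9 to 26.7 and 25.7 and from 19.3 and 20.6 to 23.9 and 26.05 (0.37 ± 0.09, adjusted p = 0.0007), and one 38.2 kb upstream rose as well (0.39 ± 0.09). ERCC1 is a DNA repair gene that overlaps FOSB. Of the 12 regions, 3 fell with the start included and 2 rose.

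At FOSL2, 2 of 7 regions rose on the mean of both lines. One lay 55.4 kb downstream (0.36 ± 0.12, adjusted p = 0.010) and one 48.7 kb upstream (0.29 ± 0.12, adjusted p = 0.045). Within single lines, 1 region passed for MDA-MB-231 controls and none for Hs578T, and no genotype difference passed. Control values 55.4 kb downstream were 2.83 and 2.97 against 4.45 and 4.21 with TWEAK (MDA-MB-231). Those of Hs578T were 3.61 and 3.24 against 3.56 and 3.97. Fn14 KO lists of MDA-MB-231 held 3.28 and 3.93 there against 4.91 and 3.65 with TWEAK. Upstream, treated control lists lay above untreated ones in both lines. The broad region over the FOSL2 start was at 0.05 ± 0.09. At FOSL1 the start region was the only 1 of 2 that passed.

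ATF3 and BATF3 are neighbours on chromosome 1 and share 2 of these regions. A region 2.82 kb upstream of the ATF3 start rose on the mean of both lines (0.37 ± 0.11, adjusted p = 0.0043), from 13.2 and 15.2 to 21.3 and 21.2 in MDA-MB-231 and from 17.0 and 15.4 to 18.3 and 17.8 in Hs578T. This rise passed within MDA-MB-231 and not within Hs578T, where the Fn14 KO lists ran from 11.7 to 19.8. A region 41.7 kb into the gene (chr1:212606986-212610545), which holds the starts of other coding ATF3 transcripts (212608761 and 212608915), went from 24.9 and 28.5 to 23.9 and 23.9 in MDA-MB-231 and from 22.2 and 16.5 to 13.7 and 13.9 in Hs578T. The region 41.7 kb into the gene fell on the mean of both lines by 0.32 on the log2 scale (SE 0.09, adjusted p = 0.0045), while the peak at the first ATF3 start was at 0.07 ± 0.10. The shared region 31.05 kb downstream of the BATF3 start and 100.02 kb from the ATF3 start fell by 0.64 (SE 0.12) on that mean. It held 9.96 and 13.3 against 7.40 and 10.5 with TWEAK in MDA-MB-231, which overlapped, and 12.2 and 8.75 against 5.21 and 5.90 in Hs578T. These 2 falls passed within Hs578T and not within MDA-MB-231. The BATF3 window also lost acetylation 21.2 kb upstream (−0.71 ± 0.13) and, in a region that overlaps the NSL1 gene, 26.7 kb upstream. The latter (chr1:212726576-212729178) went from 10.4 and 12.04 to 6.55 and 7.23 in MDA-MB-231 and from 10.2 and 8.79 to 5.01 and 5.07 in Hs578T (−0.81 ± 0.11, adjusted p = 1.5e-08). Its Fn14 KO values were 6.96 and 5.36 against 7.86 and 6.004, and 9.21 and 9.83 against 9.32 and 9.37.

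**Figure D4:**
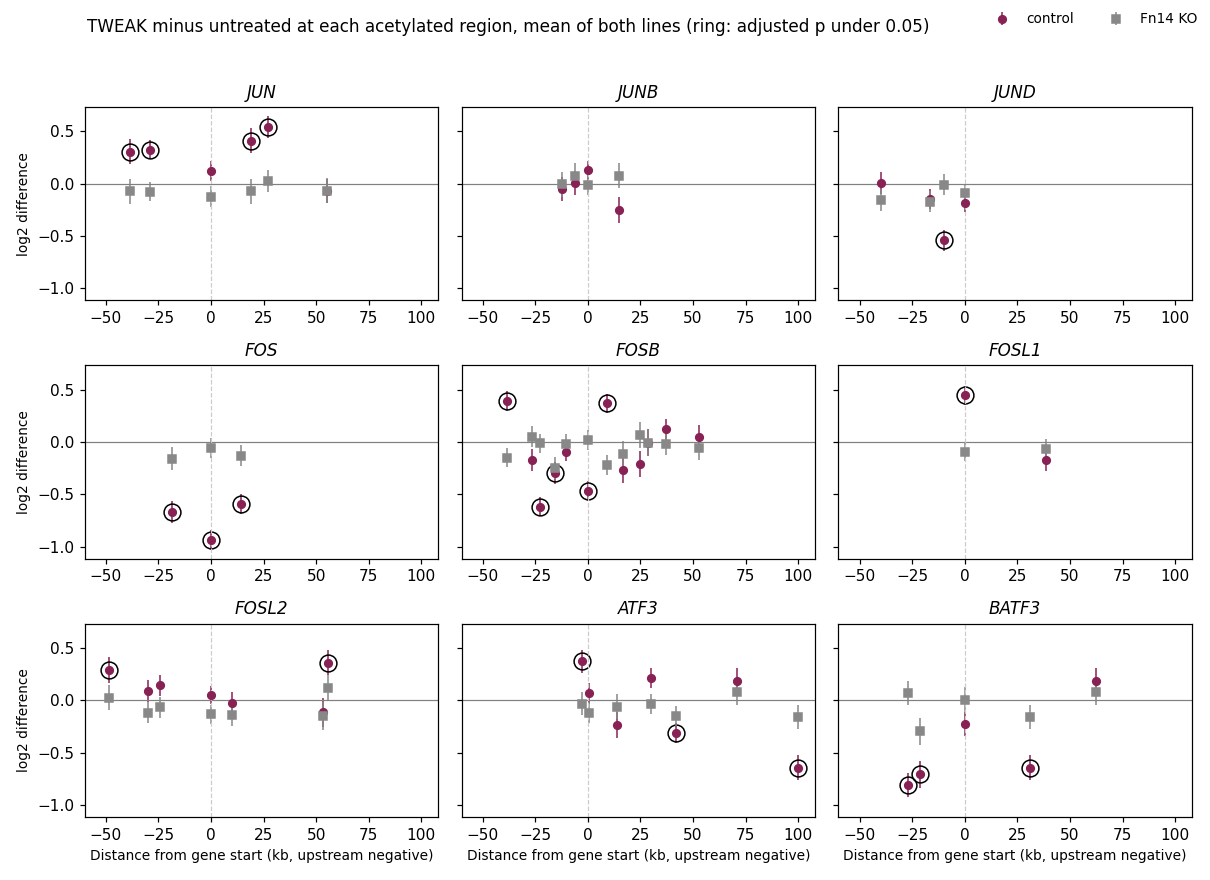
log2 difference in fold enrichment with TWEAK (y axis, mean of both lines) of each region held by every list, against its distance from the gene start in kb (x axis, upstream negative, the near edge of the region). Purple circles are control cells and grey squares Fn14 KO cells, bars are standard errors and rings mark an adjusted p under 0.05, which 10 distinct control regions carry above 0, 11 below 0, and no Fn14 KO region.

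Peaks that came or went altogether were few. A region was counted as gained where both TWEAK lists of a line and neither untreated list held a peak, and as lost for the reverse. In control cells no region of the 63 was gained and 5 were lost in MDA-MB-231, beside 5.58% and 4.49% of the 55219 regions held by at least 2 lists, and 2 were gained and 2 lost in Hs578T, beside 5.09% and 4.65%. By this rule none was gained or lost in both lines. The JUND region 49.6 kb downstream was not counted, because 1 untreated control list of each line held a peak. The gains of Hs578T were 45.8 kb downstream of the FOSB start in VASP and 19.1 kb downstream of the FOSL1 start in CTSW, where the treated lists had fold enrichments of 2.94 and 3.20, and of 3.02 and 3.24. Both untreated Hs578T Fn14 KO lists already held the VASP peak, at 2.97 and 2.97, as did 1 untreated MDA-MB-231 control list, at 2.76. The CTSW region also stood at 4.16 and 5.44 in treated MDA-MB-231 control cells, against 2.60 in 1 of the untreated lists. The losses in MDA-MB-231 were 2 near JUNB (4.43 and 44.2 kb downstream), 2 near FOSL2 (17.8 kb upstream and 24.2 kb downstream) and 1 near BATF3 (27.7 kb downstream). Those in Hs578T were 9.72 kb downstream of JUNB and 47.9 kb upstream of FOS. At the lost regions the untreated control lists of the line held only 2.60 to 3.82, below the median fold enrichment of every list (4.998 to 5.89). The lost JUNB regions overlap other genes, HOOK2 and PRDX2 at 4.43 kb and HOOK2 and MAST1 at 44.2 kb. The one at 9.72 kb holds the starts of PRDX2 and THSD8. Fn14 KO cells had 1 such change, a loss at the JUNB region 4.43 kb downstream in Hs578T, beside 0.829% of regions lost and 1.05% gained there and 1.35% and 0.321% in MDA-MB-231.

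The second comparison set untreated Fn14 KO cells against untreated control cells. On the mean of both lines 5 starts were lower (FOS, JUNB, JUND, FOSB and FOSL2), beside 14.5% of all genes lower and 0.227% higher. With lists centred, JUNB and FOS passed, and the higher share of all calls went from 1.5% to 32.1%. In MDA-MB-231, 7 members were lower, beside 48.0% of genes lower and 0.482% higher, and the median of all genes was −0.34 on the log2 scale, a shift that the values below include. FOS was at −1.20 ± 0.13, FOSB at −0.87 ± 0.13, JUND at −0.82 ± 0.12, JUNB at −0.78 ± 0.13, BATF3 at −0.57 ± 0.17, FOSL2 at −0.53 ± 0.12 and FOSL1 at −0.31 ± 0.13. With lists centred on their medians FOS (−0.86), FOSB (−0.53), JUND (−0.48) and JUNB (−0.44) passed in MDA-MB-231. Of the 10570 genes 829 were then lower and 558 higher, and 40.2% of all calls were higher in place of 1.0%. In Hs578T no member passed, beside 0.0757% of genes lower and 0.0662% higher, with 1 member and 834 genes at an unadjusted p under 0.05, and FOS was at 0.36 ± 0.13. Centring took the higher share of the few calls in Hs578T from 46.7% to 22.2%.

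The difference between lines in this comparison passed for 6 members (Hs578T minus MDA-MB-231), beside 35.6% of all genes higher, 0.341% lower and a median of 0.40. It was 1.56 ± 0.18 for FOS, 1.08 ± 0.19 for FOSB and 0.87 ± 0.17 for JUND. After centring, FOS (1.14, adjusted p = 0.00012) and FOSB (0.67, adjusted p = 0.0088) passed, beside 374 of the 10570 genes higher and 262 lower. The higher share of all calls went from 99.1% to 58.8%. The lower peak significance of the MDA-MB-231 Fn14 KO lists moves with these values, and its part in them was not tested. By covered length no member passed in either line, beside 0.960% of genes lower and 0.642% higher in MDA-MB-231 and 0.100% and 0.151% in Hs578T. There 7 members in MDA-MB-231 and 1 in Hs578T had an unadjusted p under 0.05, against 2592 and 1198 genes, and all 9 estimates were below 0 in MDA-MB-231 (−0.41 to −0.03) and above 0 in Hs578T (0.01 to 0.29).

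Of the 48 single regions, 24 were lower in untreated Fn14 KO than in control cells of MDA-MB-231 and none was higher, beside 29.8% and 2.72% of all regions. With lists centred these were 18 lower and 3 higher, beside 3835 and 2855 of the 28337 regions. The higher share of all calls went from 8.4% to 42.7%. In Hs578T 1 was higher and none lower, beside 0.374% and 0.716%. It lay 24.2 kb upstream of the FOSL2 start and held 12.9 and 14.2 in control and 22.1 and 19.2 in Fn14 KO cells of Hs578T (0.60 ± 0.14, adjusted p = 0.012). In untreated MDA-MB-231 the same region held 12.6 and 13.8 in control and 7.01 and 6.07 in Fn14 KO cells, the opposite direction.

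The third comparison was between the lines. Over all conditions, the start of FOS was higher in Hs578T (0.57 ± 0.06) and those of BATF3 (−0.45 ± 0.08), JUNB (−0.33 ± 0.06), JUN (−0.21 ± 0.06) and FOSL2 (−0.20 ± 0.06) were lower, 1 higher and 4 lower, beside 17.7% and 29.5% of all genes. All 5 calls were lost under the exact permutation test, with adjusted p = 0.14 for FOS, 0.051 for BATF3, 0.13 for JUNB, 0.098 for JUN and 0.19 for FOSL2. The few possible exchanges limit how small the p-values of that test can get. With lists centred on their medians 3 members were higher and 4 lower, beside 2903 and 2729 of the 10570 genes. The higher share of all calls went from 37.5% to 51.5%. The FOS difference came with its low values in MDA-MB-231 Fn14 KO cells: in untreated control cells alone it was −0.12 ± 0.13 (adjusted p = 0.47). There, 6 members were lower in Hs578T, beside 36.6% of all genes lower, 2.3% higher and a median of −0.26. These 6, before centring, were BATF3 (−0.81 ± 0.17), JUNB (−0.75 ± 0.13), JUND (−0.62 ± 0.12), FOSL2 (−0.52 ± 0.12), FOSB (−0.50 ± 0.13) and JUN (−0.35 ± 0.13). With lists centred only 3 members were lower, while 1286 of the 10570 genes were lower and 1236 higher. The higher share of all calls went from 5.9% to 49.0%. By covered length, FOSL2 (0.23 ± 0.05, adjusted p = 0.0018) and JUN (0.16 ± 0.05, adjusted p = 0.021) were higher in Hs578T over all conditions, beside 46.7% of genes higher, 3.44% lower and a median of 0.16. In untreated control cells no member passed by coverage, beside 4.42% of genes higher and 0.888% lower, with 0 members and 3751 genes at an unadjusted p under 0.05, and centring took the higher share from 83.3% to 54.1%. Over all conditions, centred lists left neither FOSL2 nor JUN as higher, put JUN at −0.01, and took the higher share of all calls from 93.1% to 49.3%.

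Genes around AP-1 were followed as 3 lists. Of 16 other AP-1 and basic leucine zipper partner genes, 12 had a start peak in all lists, and 3 rose and none fell with TWEAK in control cells over both lines (median 0.13, all genes 0.05), beside 13.8% of all genes higher and 7.26% lower. They were NFE2L3, a relative of NRF2 (1.04 ± 0.08, adjusted p = 1.6e-10), ATF6, a sensor of unfolded protein in the endoplasmic reticulum (0.49 ± 0.11), and ATF7, a relative of ATF2 (0.31 ± 0.11). NFE2L3 and ATF6 also differed between genotypes (1.23 ± 0.12 and 0.51 ± 0.15). By covered length 2 of 16 rose and 2 fell, beside 6.84% of all genes higher and 11.1% lower. ATF5 (0.87 ± 0.12) and NFE2L3 (0.45 ± 0.11) rose and ATF7 (−0.48 ± 0.12) and ATF1 (−0.28 ± 0.08) fell, so that ATF7 went in opposite directions on the 2 measures.

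Of 30 genes that signal to AP-1, 28 had a start peak in all lists, of which 4 rose and 2 fell (median −0.03), beside 13.8% of all genes higher and 7.26% lower, so the counts were near those of all genes. The risers were ELK3, an ETS factor of the serum response family (0.66 ± 0.08), the kinases of p38 MAP2K3 (0.33 ± 0.10) and of JNK MAP2K7 (0.30 ± 0.10), and MAPK14, which is p38α itself (0.30 ± 0.11). Those that fell were DUSP5, a phosphatase of ERK (−0.41 ± 0.10), and MAPK10, the JNK3 gene (−0.37 ± 0.11). By covered length 1 of 30 rose and 2 fell, beside the same 6.84% and 11.1%. MAPK7 (−0.35 ± 0.08) and DUSP4 (−0.23 ± 0.07) fell and DUSP16 rose (0.22 ± 0.07). Of 25 genes listed as AP-1 targets, 16 had a start peak in all lists and 6 rose, none falling (median 0.13), beside 13.8% of all genes higher and 7.26% lower. They were HMGA1, a chromatin architecture protein (0.67 ± 0.09), CD44, a hyaluronan receptor (0.61 ± 0.12), the urokinase receptor PLAUR (0.55 ± 0.09), the angiogenic factor VEGFA (0.45 ± 0.11), the cytokine IL6 (0.36 ± 0.09) and urokinase itself, PLAU (0.28 ± 0.09). The response of the same 6 genes differed between genotypes, by 0.44 to 0.84. By covered length 8 of 23 targets rose and 3 fell, beside 6.84% of all genes higher and 11.1% lower, among them as higher the prostaglandin synthase PTGS2 (0.75 ± 0.09), the proteoglycan DCN (1.08 ± 0.25), the collagenase MMP1 (0.58 ± 0.14) and the chemokine CXCL8 (0.48 ± 0.10). Among the lower were CCND1, which encodes cyclin D1 (−0.52 ± 0.08), and the cytokine IL11 (−0.69 ± 0.15). In Fn14 KO cells no gene of the 3 lists passed on either measure.

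BATF3 was the 1 member called by coverage within a control line, and the genes outside its neighbourhood whose covered length most followed its own over the 16 lists were MFNG (Pearson r 0.953), ONECUT3 (0.942) and KCTD9 (0.941). The 16 lists share lines, genotypes and treatments, so these values are a description only.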

How the data were processed

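H3K27ac ChIP-seq of MDA-MB-231 and Hs578T cells gave 16 peak lists, 2 for each of 8 groups, assigned by sample title. Per the study's methods and the submitters' processing notes, the authors used Trimmomatic for trimming, Bowtie2 for alignment (hg38) and MACS2 with input subtraction for peak calling, and removed blacklisted regions. Tool versions are not given in the sources used here. Each deposited list holds, for each peak, a score (10 times the −log10 q-value, cut to a whole number), a fold enrichment ratio, and the −log10 p-value and −log10 q-value as the authors' peak caller wrote them. Whether the deposited ratio is a mean or a height is not given in the sources used here. Reads and library sizes were not used here, so depth is unknown and no counting interval is given.

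GENCODE release 44 on hg38 gave 19970 protein-coding genes. limma 3.58.1 in R 4.3.3 (8 group means, eBayes with trend) was fitted to log2 covered length plus 1000 bp for 17915 genes with a peak in at least 2 lists, to log2 of the highest ratio within 2 kb of the start for 10570 genes with one in all 16 lists, and to the ratio of 28337 merged regions, with Benjamini-Hochberg adjustment over all features and a threshold of 0.05. Values after ± in the report are limma standard errors, and log2 differences are TWEAK minus untreated, Fn14 KO minus control, or Hs578T minus MDA-MB-231. The steps were tested on simulated data. Control lists are shared between comparisons. Replicate numbers did not pair the lists (correlations of deviations −0.205 to 0.105). The members, gene lists and tests were chosen with earlier results of these data known. Named were all members, up to 6 called genes of each other list in order of p, up to 5 gained or lost regions per member, nearest first, and the 3 genes most alike in coverage that start more than 500 kb away. The rule for sequences, a region gained in both lines, found no member. Alternatives were the replicate block, an exact permutation test, each list left out, a higher q-value minimum, lists trimmed to equal length or centred, no trend, other flanks, pseudocounts, scales and start windows.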

Additional observations from a re-analysis of the deposited data

Results flagged for a closer look

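The TWEAK response differed between control and Fn14 KO cells for 4 results on the members, as control minus Fn14 KO on the log2 scale over both lines: start site enrichment of FOS (−0.88), FOSB (−0.49) and FOSL1 (0.54), and covered length of the BATF3 window (−0.45). It also differed at 15 of the 48 regions in the member windows that every list held, beside 28.6% of all regions.

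The difference between untreated Fn14 KO and control cells was itself different in the 2 lines at the starts of FOS (1.56), FOSB (1.08), JUND (0.87), JUNB (0.77), BATF3 (0.71) and FOSL2 (0.58), given as Hs578T minus MDA-MB-231 on the log2 scale, beside a median of 0.40 over all genes. The FOS start of MDA-MB-231 Fn14 KO cells was at 12.8 and 9.43 untreated against 24.5 and 25.9 in control cells, while in Hs578T it was at 29.1 and 30.5 against 23.7 and 22.7. The lists of MDA-MB-231 Fn14 KO cells had the lowest median −log10 q-values, and the part of this in the difference was not tested. No group had enough lists for a search for single outlying lists.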

How the results depend on the processing

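Counts of members called varied with the setting, and depth is unknown. For TWEAK and covered length in MDA-MB-231 controls (1 called), centred lists gave 3, trimmed lists 2, flanks of 10 or 100 kb 0 each, and lists left out 0 to 1. In Hs578T control cells (0) the higher q-value minimum and trimmed lists gave 1 each. For the TWEAK difference between genotypes in covered length (1), the replicate block, the exact permutation test and both flanks gave 0, centred lists 2, and lists left out 0 to 2. For untreated Fn14 KO against control by covered length in MDA-MB-231 (0), centred lists gave 2, the q-value minimum and trimmed lists 1 each, lists left out 0 to 4, and a crossed pairing of the replicates 2. For the lines by covered length (2), the exact test, the 10 kb flank and the q-value minimum gave 1 each, the linear scale 4, and lists left out 1 to 4. JUN by covered length between lines turned from 0.16 to −0.012 with centred lists. At the starts, centred lists gave 5 for TWEAK in control cells (3) and 2 for untreated Fn14 KO (5, lists left out 3 to 6), and the exact test gave 0 for the TWEAK difference between genotypes (3, lists left out 2 to 3) and for the lines (5, lists left out 5 to 7). Called regions stayed at 17 to 21 of 48 with TWEAK in control cells (21) and at 13 to 15 for the difference between genotypes (15) as lists were left out. Gained regions of MDA-MB-231 control cells (0) became 1 when peaks had to cover most of a region and 1 with the q-value minimum, and lists left out gave 0 to 2. With the q-value minimum, its lost regions (5, lists left out 5 to 7) became 3 and the gained regions of Hs578T (2) became 1. Leaving out lists gave 2 to 4 gained and 2 to 6 lost regions there. Genome-wide counts moved too: centring took the calls by covered length in control cells in MDA-MB-231 from 1270 to 3318, in Hs578T from 975 to 2717, and the start calls of untreated Fn14 KO from 1557 to 336. The replicate numbers did not pair the lists. Under the replicate block the genes called by covered length in untreated Fn14 KO went from 287 to 100 in MDA-MB-231 (1127 with crossed pairing). In Hs578T they went from 45 to 21. Apart from the fall from 1 to 0 given above for the difference between genotypes, counts of members moved by at most 1.5 times under this block. FOSL2 lost its calls by covered length with TWEAK and at the start in Fn14 KO under it. Of 23 results for single members, 5 were called under every alternative run, FOS, FOSB and FOSL1 with TWEAK in control cells among them. None of these 5 was put to the exact permutation test, which was run only for the TWEAK difference between genotypes and for the lines. Over all results, 414 of 491 alternatives kept the call.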
